A study of Mus musculus with 5 samples.

Results

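The transcripts of 8 chemoattractant receptor genes were followed in RNA-Seq data from bone marrow–derived macrophages (BMDMs): the CC chemokine receptors *Ccr1*, *Ccr2*, and *Ccr3*, the fractalkine receptor *Cx3cr1*, the CXC chemokine receptors *Cxcr2* and *Cxcr4*, and the chemerin receptors *Cmklr1* and *Ccrl2*. The members were listed by symbol and matched to Entrez Gene identifiers. All 8 had counts, among 17058 genes with a count in at least 1 library. The BMDMs came from BALB/c mice, stated in the paper to be female, and were grown with M-CSF. They were cocultured for 48 hours with 4T1 cells, a mouse mammary carcinoma line, with a porous membrane between the cell types, so that they shared medium but had no contact. The 4T1 cells were WT for 2 libraries and *Adam17*-/- for 3. *Adam17* encodes a membrane protease that sheds growth factors and cytokines from the cell surface. The knockout is in the cancer cells, while the macrophages are unedited, so its level in these libraries does not check the labels. All 3 *Adam17*-/- libraries carry the designation 2.8, so the effect of *Adam17* and that of other features of this line cannot be told apart. The comparison therefore asks how the receptor transcripts of macrophages differ with the cancer cells that share their medium. The labels do not say whether the replicates came from separate mice or cultures, and the p-values measure only the spread between these libraries, which may be technical.

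Chemokine receptors are G protein–coupled receptors that let leukocytes sense gradients of small secreted proteins and migrate along them. CCR2 is known for drawing monocytes out of the bone marrow into inflamed tissue and tumors, CXCR2 for drawing neutrophils toward chemokines with an ELR motif, and CX3CR1 for adhesion and survival of monocytes and resident macrophages. CMKLR1 signals in response to chemerin, whereas CCRL2 binds chemerin without signaling and presents it to neighboring cells. CXCR4 binds CXCL12 and holds leukocytes in the bone marrow.

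Depth was 20788373 and 19204243 expected counts in the WT libraries and 14658694 to 18210258 in the *Adam17*-/- libraries, so it was lower in the latter. In CPM (counts scaled to a TMM-normalized library total), 3 counts correspond to between 0.157 and 0.197. Tests were made with edgeR's quasi-likelihood test over the 12576 genes that passed its filter on low counts, and a gene passed when its p, adjusted by the Benjamini-Hochberg method, was 0.05 or less. By this rule, 14.9% of all genes tested were higher and 16.8% lower with *Adam17*-/- cells. When a change of at least 1 on the log2 scale was also asked for, 3.36% were higher and 0.867% lower. The groups did not overlap in 58.1% of all genes tested. The macrophage identity of the cells was visible in every library, with 949 to 1322 CPM of *Cd68* with WT cells and 568 to 616 CPM with *Adam17*-/- cells. The lymphoid marker list summed to between 0.271 and 1.25 CPM. The epithelial marker list summed to between 11.0 and 13.8 CPM, nearly all of it from *Cdh1* (10.6 to 13.2 CPM). The epithelial marker *Epcam* had 1 count in WT replicate 2 and 0 in the other libraries. In bulk RNA, fewer cells of a type and less RNA per cell cannot be told apart, and this applies to every value given here.

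The genes lie on 3 chromosomes, given here in the mouse genome build GRCm38. *Ccr1* (Entrez Gene 12768, chr9:123962126-123968692), *Ccr3* (12771, chr9:124017825-124031692), and *Ccr2* (12772, chr9:124101918-124109140) lie close together on chromosome 9. *Ccrl2* (54199, chr9:111054834-111057518) and *Cx3cr1* (13051, chr9:120048683-120068296) lie before them, at lower coordinates of the same chromosome. *Cxcr2* (12765, chr1:74153994-74161246) and *Cxcr4* (12767, chr1:128588199-128592299) are on chromosome 1, and *Cmklr1* (14747, chr5:113612355-113650475) is on chromosome 5. *Ccr2*, *Ccr3*, and *Cxcr2* are on the plus strand and the others on the minus strand. The coding sequence lies in 1 exon in every GENCODE model matched to the measured transcripts except that of *Cxcr4*, where it is split over 2.

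The genes with the largest change in each direction were *Cxcr2*, which was higher with *Adam17*-/- cells, and *Cmklr1*, which was lower. The 240 bases that end 11 bases before their RefSeq start sites (table of GRCm38.p6) are shown because they are the promoter windows of these 2 genes. The *Cxcr2* window is chr1:74153744-74153983 on the plus strand and the *Cmklr1* window is chr5:113643614-113643853 on the minus strand, both written 5′ to 3′ along the gene. Capitals mark matches to GAGGAA, a core recognized by the myeloid factor PU.1 (or to TTCCTC, its reverse complement), and to the E-box CACGTG.
Cxcr2: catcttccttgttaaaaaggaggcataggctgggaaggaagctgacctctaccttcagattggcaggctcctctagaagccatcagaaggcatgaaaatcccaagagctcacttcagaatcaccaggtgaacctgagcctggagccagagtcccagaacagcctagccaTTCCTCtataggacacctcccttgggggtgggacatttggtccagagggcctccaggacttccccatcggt
Cmklr1: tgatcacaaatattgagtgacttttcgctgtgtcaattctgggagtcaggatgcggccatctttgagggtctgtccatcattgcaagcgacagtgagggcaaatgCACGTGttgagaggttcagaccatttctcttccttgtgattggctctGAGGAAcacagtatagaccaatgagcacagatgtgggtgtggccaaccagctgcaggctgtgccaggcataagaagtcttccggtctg

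Each window held 1 match to GAGGAA. In *Cxcr2* it lies on the minus strand and its first base is at position -81 from the start, and in *Cmklr1* it lies on the plus strand at position -98. The E-box of *Cmklr1* begins at position -145. GAGGAA on either strand is common, since 22.3% of 32851 promoter windows of the same length held it, and 4 of the 10 windows listed for the receptor genes did. CACGTG occurred in 5.69% of all windows and in 1 of the 10. Of 4 other motifs searched on both strands, TATAAA was found in the *Cxcr4* window on both strands with overlapping letters (12.1% of all windows), TGANTCA in 1 window of *Ccr3* (6.58%), and TTGCNNAA (9.29%) and TGACGTCA (1.44%) in none. All 8 genes matched the table, *Ccrl2* with 3 windows, and the letters of different motifs do not overlap within the windows printed. The RefSeq start used for *Cmklr1*, at 113643603, lies inside the gene, while the model of the measured transcript starts at 113650426, so that this window belongs to a shorter transcript.

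Of the 8 receptor genes, 7 were tested. *Cxcr2* and *Ccr2* were higher after coculture with *Adam17*-/- cells, *Cmklr1* was lower, and *Ccr1*, *Ccrl2*, *Cx3cr1*, and *Cxcr4* did not pass. That is 28.6% higher and 14.3% lower among the genes tested, against 14.9% and 16.8% over all genes, and with 7 genes such shares are coarse. The groups did not overlap in 4 of the 7 genes (57.1%), close to the 58.1% over all genes. The median log2 fold change of the 7 was 0.07, against 0.01 over all genes tested. With the second rule, *Cxcr2* was the 1 receptor that stayed higher (14.3%, against 3.36% over all genes) and 0 were lower (0%, against 0.867%).

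**Figure D1:**
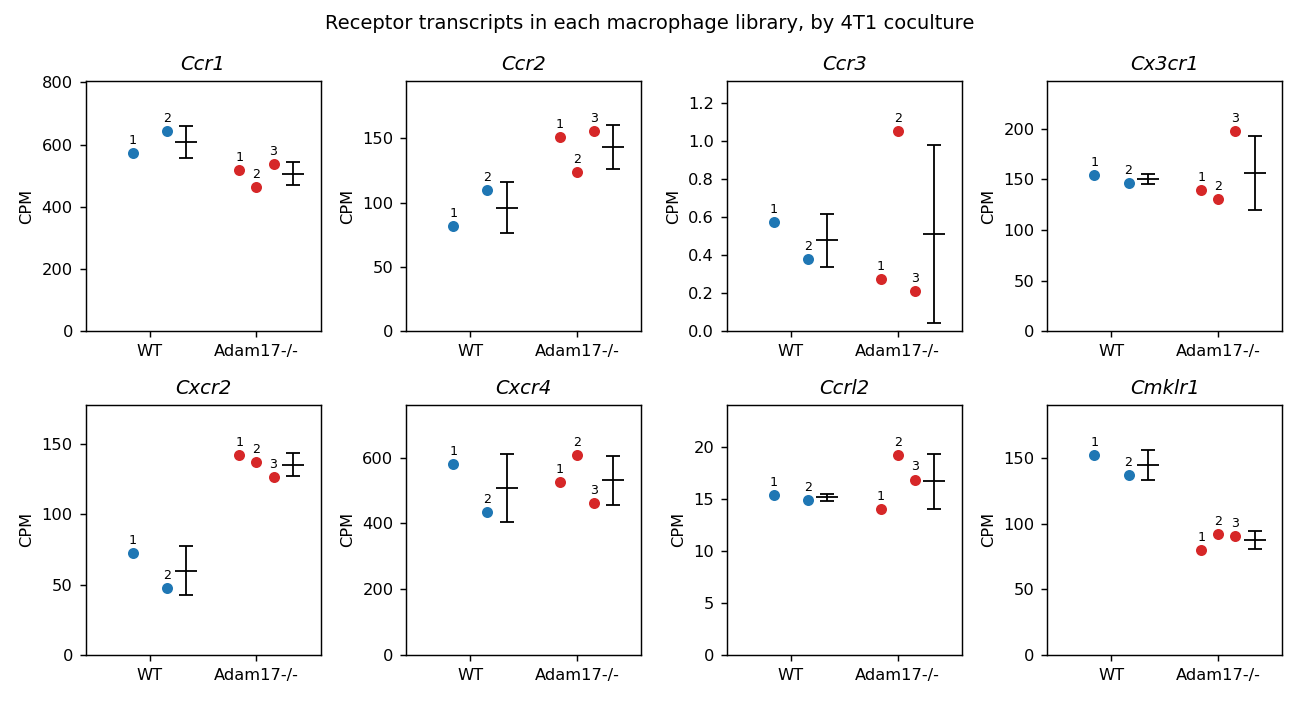
Level of each receptor gene in each of the 5 libraries, in CPM on an axis of its own for each gene, with points numbered by replicate and bars for mean and SD (WT, n = 2, *Adam17*-/-, n = 3). The *Adam17*-/- libraries lie above both WT libraries for *Cxcr2* and *Ccr2*, below them for *Cmklr1* and *Ccr1*, and overlap with them for the other genes.

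*Cxcr2* encodes the receptor for CXCL1, CXCL2, CXCL3, CXCL5, and CXCL7. It was at 72.2 and 47.8 CPM in WT replicates 1 and 2 and at 142, 137, and 126 CPM in *Adam17*-/- replicates 1, 2, and 3. The *Adam17*-/- libraries lay close together and all above both WT libraries, which were themselves far apart. The means were 60.0 ± 17.3 CPM (SD, n = 2) and 135 ± 8.27 CPM (SD, n = 3), a 2.25-fold increase (95% CI 1.78 to 2.86). This was a log2 fold change of 1.17, with a standard error of 0.154 and an adjusted p of 0.000962 by edgeR. Its counts were not all whole numbers, and reads shared with a near-identical gene may have been divided. Its paralog *Cxcr1* had 18 and 7 counts with WT cells and 22, 31, and 25 with *Adam17*-/- cells, a small number beside the 883 to 2603 counts of *Cxcr2*, and did not pass (log2 fold change 1.17, adjusted p = 0.0645, edgeR).

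*Ccr2* encodes the receptor for CCL2, CCL7, and CCL12. It was at 81.8 and 110 CPM with WT cells and at 151, 123, and 156 CPM with *Adam17*-/- cells. The groups did not overlap, although *Adam17*-/- replicate 2 was nearer to WT replicate 2 than to the other *Adam17*-/- libraries. The means were 95.9 ± 19.9 CPM (SD, n = 2) and 143 ± 17.3 CPM (SD, n = 3), a 1.50-fold increase (95% CI 1.20 to 1.86). This was a log2 fold change of 0.58, with a standard error of 0.140 and an adjusted p of 0.0131 by edgeR. The adjusted p was 0.0573 without *Adam17*-/- replicate 1 and 0.0551 without replicate 3, so the call was lost without either of them, at log2 fold changes of 0.56 and 0.53. The lowest log2 fold change, 0.38, came without WT replicate 1. *Ccr2* counts were also not all whole. They lay at most 0.33 from a whole number, which does not show how many reads were divided.

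*Ccr1*, which binds CCL3, CCL5, CCL6, CCL7, and CCL9, was, per length, the most abundant CC receptor of the group. It stood at 572 and 643 CPM with WT cells and 519, 464, and 538 CPM with *Adam17*-/- cells. All *Adam17*-/- libraries lay below both WT libraries, but the means, 608 ± 50.5 CPM (SD, n = 2) and 507 ± 38.4 CPM (SD, n = 3), were close. The log2 fold change was -0.26 (95% CI -0.47 to -0.05, adjusted p = 0.0613, edgeR), and it missed the threshold. With all 5 libraries it passed under DESeq2 (-0.27, adjusted p = 0.0380) and in edgeR without the filter on low counts (-0.26, adjusted p = 0.0490). Without WT replicate 1 it was -0.35 by edgeR, a fit that rests on 1 WT library. Its spread is taken from the *Adam17*-/- libraries, which lay closer together than the WT libraries over all genes, though not for *Ccr1* itself.

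*Ccr3*, the eotaxin receptor of eosinophils, was near the floor. It had 11 and 7 counts with WT cells and 5, 16, and 4 with *Adam17*-/- cells, and the groups overlapped. It did not pass the filter on low counts and was not tested in the main comparison. Without the filter, its log2 fold change was 0.04 (adjusted p = 0.972, edgeR). A difference was not detectable at this depth.

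*Cx3cr1*, the receptor for the membrane-bound chemokine CX3CL1, was at 154 and 146 CPM with WT cells and at 139, 131, and 198 CPM with *Adam17*-/- cells. *Adam17*-/- replicate 3 was the highest of the 5 and the other 2 *Adam17*-/- libraries were the lowest, so the groups overlapped. The log2 fold change was 0.05 (95% CI -0.30 to 0.40, adjusted p = 0.817, edgeR), and it was -0.14 without *Adam17*-/- replicate 3.

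*Cxcr4* was, per length, the most abundant of the 8 transcripts. It was at 581 and 434 CPM with WT cells and 525, 609, and 461 CPM with *Adam17*-/- cells. The groups overlapped, and the spread within each was larger than the difference between the means (507 ± 104 CPM, SD, n = 2, and 532 ± 74.3 CPM, SD, n = 3). The log2 fold change was 0.07 (95% CI -0.25 to 0.39, adjusted p = 0.745, edgeR). Its sign turned without WT replicate 2 (-0.13) and without *Adam17*-/- replicate 2 (-0.02).

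The 2 chemerin receptors differed in level and in change. *Cmklr1* was at 153 and 137 CPM with WT cells and at 79.7, 92.3, and 90.4 CPM with *Adam17*-/- cells. Every *Adam17*-/- library lay well below both WT libraries. The means were 145 ± 11.2 CPM (SD, n = 2) and 87.5 ± 6.78 CPM (SD, n = 3), so that *Cmklr1* decreased to 60.4% of its WT level. The log2 fold change was -0.73 (95% CI -0.94 to -0.52), with a standard error of 0.0939 and an adjusted p of 0.000900 by edgeR. *Ccrl2* was at 15.4 and 14.9 CPM with WT cells and at 14.0, 19.3, and 16.9 CPM with *Adam17*-/- cells. These ranges overlapped, and the log2 fold change was 0.14 (95% CI -0.18 to 0.45, adjusted p = 0.479, edgeR). *Gpr1*, which encodes a further chemerin receptor (CMKLR2), had 2 and 1 counts with WT cells and none in any library from *Adam17*-/- coculture, under the floor of 3 counts per library.

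**Figure D2:**
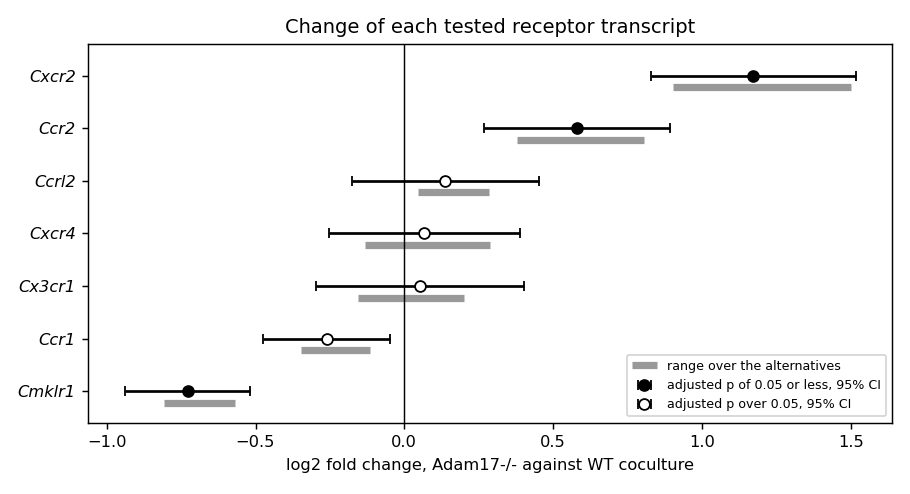
Log2 fold change (*Adam17*-/- against WT coculture) of the 7 receptor genes tested, with 95% confidence intervals from edgeR. The intervals of *Cxcr2* and *Ccr2* lie above 0 and those of *Cmklr1* and *Ccr1* below it, while those of *Ccrl2*, *Cxcr4*, and *Cx3cr1* cross 0.

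Levels of different genes were compared per length, in FPKM as deposited, and the order is a description. In the WT libraries the order from high to low was *Cxcr4* (271 FPKM), *Ccr1* (207), *Cmklr1* (49.0), *Cx3cr1* (38.2), *Ccr2* (25.7), *Cxcr2* (18.9), *Ccrl2* (7.68), and *Ccr3* (0.135). The ranges of *Ccr2* and *Cxcr2* overlapped, and those of the other neighbors in this order did not. In the *Adam17*-/- libraries the order was *Cxcr4* (315 FPKM), *Ccr1* (191), *Cxcr2* (47.3), *Cx3cr1* (43.9), *Ccr2* (42.3), *Cmklr1* (32.7), *Ccrl2* (9.14), and *Ccr3* (0.167). Here the ranges of *Cxcr2*, *Cx3cr1*, and *Ccr2* overlapped with each other. By group means, *Cxcr2* thus stood in place 6 with WT cells and place 3 with *Adam17*-/- cells, and *Cmklr1* in place 3 and place 6. In *Adam17*-/- replicate 3, *Cxcr2* (43.9 FPKM) lay below *Cx3cr1* (55.5) and *Ccr2* (45.7). In WT replicate 1, *Cxcr2* lay above *Ccr2*. As a share of the FPKM summed over the 8 genes, *Cxcr2* made up 3.06% with WT cells and 6.94% with *Adam17*-/- cells, and *Cmklr1* made up 7.93% and 4.80%. *Cxcr4* and *Ccr1* together held most of the sum in both groups, with 43.9% and 33.5% with WT cells and 46.3% and 28.0% with *Adam17*-/- cells.

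**Figure D3:**
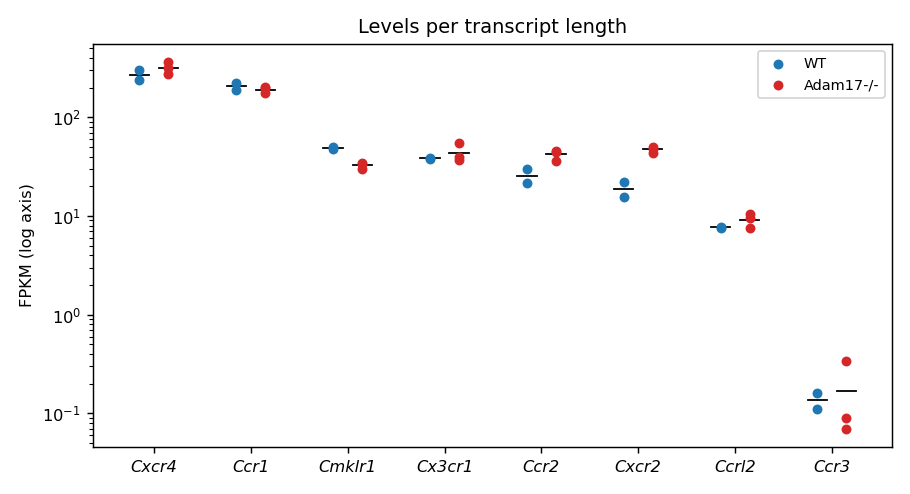
FPKM of the 8 receptor genes in each library on a log axis, ordered by their WT mean, with WT and *Adam17*-/- libraries in different colors and a line at each group mean. *Cxcr4* and *Ccr1* are the highest in all 5 libraries and *Ccr3* is the lowest. In the middle of the order, *Cxcr2* and *Cmklr1* exchange places by group mean.

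Only *Ccrl2* was measured as more than 1 transcript. NM_017466 took 28.0% and 33.4% of its estimated counts with WT cells and 66.7%, 51.6%, and 33.4% with *Adam17*-/- cells, and NM_001302376 took 62.4% and 45.9% against 21.5%, 48.4%, and 34.7%. NM_001302377 took the rest, from 0% in *Adam17*-/- replicate 2 to 31.9% in replicate 3. All 3 ranges overlapped between the groups or met at their edge, and the 256 to 319 counts of *Ccrl2* per library were divided among transcripts that share sequence, so the shares are estimates only.

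The libraries also held transcripts of ligands of these receptors, and which cells they came from was not tested. Of 22 ligands listed, 20 had counts and 17 were tested. 11 were lower with *Adam17*-/- cells (64.7%, against 16.8% over all genes) and 1 was higher (5.88%, against 14.9%), and the median log2 fold change was -0.55. Among the ligands, 7 were lower also by the second rule (41.2%, against 0.867%). The groups did not overlap in 13 of the 17 (76.5%, against 58.1%).

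The chemokine ligands of *Cxcr2* and *Ccr2*, the receptor genes that were higher, were all lower where tested. These were 5 of 5 for *Cxcr2* and 3 of 3 for *Ccr2*, against 16.8% lower over all genes. Relative to WT, *Ppbp* (CXCL7) stood at 34.2%, *Cxcl5* at 38.1%, *Cxcl3* at 39.9%, *Cxcl1* at 43.9%, and *Cxcl2* at 50.5%. These are neutrophil-attracting chemokines, and their adjusted p-values ranged from 0.000174 to 0.00535 (edgeR). *Ccl2*, the main chemoattractant of monocytes, fell from 3679 and 2458 counts with WT cells to 362, 540, and 683 with *Adam17*-/- cells, 18.7% of the WT level (adjusted p = 0.000352, edgeR). *Ccl7* stood at 26.4% (adjusted p = 0.000584) and *Ccl12* at 22.7% of WT, the latter with 32 to 35 counts with WT cells and 2 to 10 with *Adam17*-/- cells.

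The ligands of *Ccr1* went both ways. *Ccl6* decreased to 71.9% and *Ccl9* to 68.5% of WT, and *Ccl7*, which *Ccr1* shares with *Ccr2* and *Ccr3*, was lower as above. *Ccl5* (RANTES) was the 1 ligand that was higher, with 475 and 371 counts with WT cells against 813, 630, and 584 (log2 fold change 0.79, adjusted p = 0.00642, edgeR). *Ccl3* did not pass (log2 fold change -0.40, adjusted p = 0.109). For *Ccr3*, the eotaxin *Ccl24* was lower (-0.52, adjusted p = 0.0357, edgeR), and *Ccl11* had 2 counts in WT replicate 2 and 0 elsewhere.

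Other ligands varied widely in level. *Cx3cl1* had 22 to 36 counts per library (log2 fold change -0.02, adjusted p = 0.967, edgeR) and *Cxcl12*, the ligand of CXCR4, had 3 to 14 (0.08, adjusted p = 0.929). *Rarres2*, the gene of chemerin, had 3 counts or fewer in every library and was not tested. *Ccl4* (log2 fold change -0.49, adjusted p = 0.0943) and *Mif*, a ligand of CXCR2 and CXCR4 with 2682 to 4621 counts per library (-0.17, adjusted p = 0.252), did not pass, and *Ccl8* was too low to test.

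**Figure D4:**
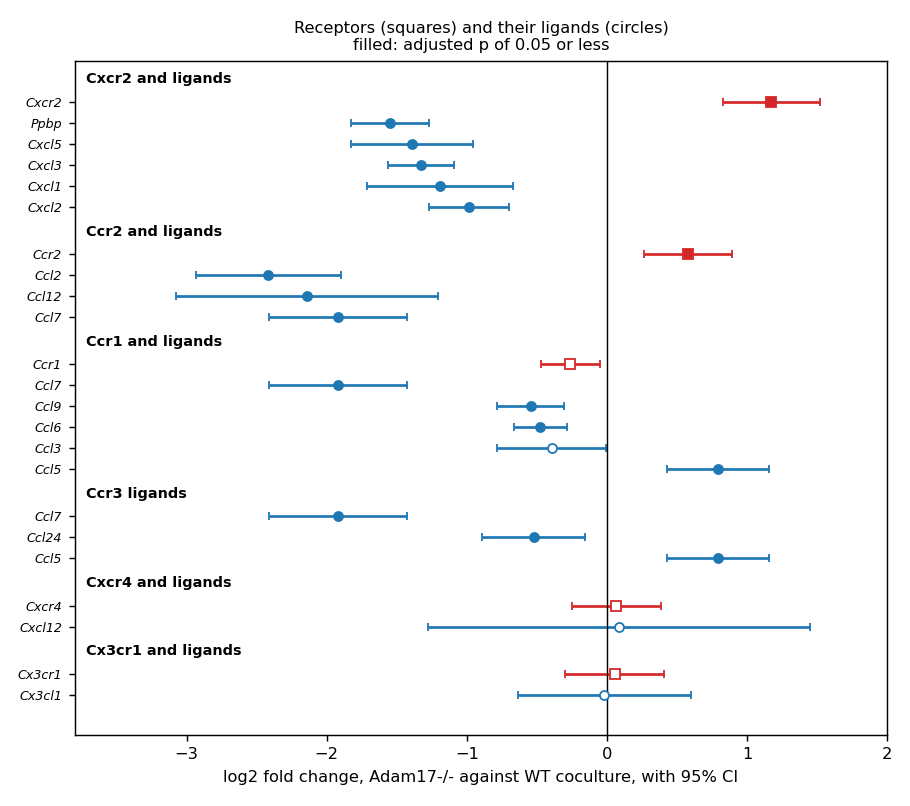
Log2 fold changes (*Adam17*-/- against WT coculture, edgeR) of each receptor gene and of its tested chemokine ligands, as squares and circles in a block for each receptor, with 95% confidence intervals and filled symbols for an adjusted p of 0.05 or less (*Ccr3* itself was not tested). Every chemokine drawn for *Cxcr2* and *Ccr2* lies below 0 while the receptor lies above it, and no ligand of *Cmklr1* or *Ccrl2* was tested.

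Other chemoattractant receptors were tested for comparison, 28 of them listed and 17 tested. Of these, 1 was higher (5.88%, against 14.9% over all genes) and 5 were lower (29.4%, against 16.8%), and their median change on the log2 scale was 0.03. *Ccr7*, which guides cells to lymph nodes, was at 4.34 and 2.06 CPM with WT cells and 9.30, 6.97, and 7.73 CPM with *Adam17*-/- cells (log2 fold change 1.32, adjusted p = 0.00673, edgeR). The lower genes were *C5ar1*, the receptor for the complement fragment C5a (-0.88, adjusted p = 0.000381), the scavenging receptor *Ackr3*, which binds CXCL12 (-0.70, adjusted p = 0.00713), the leukotriene receptor *Ltb4r1* (-0.59), the platelet-activating factor receptor *Ptafr* (-0.31), and the sphingosine phosphate receptor *S1pr1* (-0.30). The count of higher genes was between 1 and 5 over the alternatives and 3 without either WT replicate, and that of lower genes was 3 without *Adam17*-/- replicate 1. Over all genes, the higher calls went from 1869 to 3019 with library size only, to 2927 with log2(FPKM + 0.1), and to 1868 and 2460 without WT replicates 1 and 2, and the lower calls from 2114 to 926 without *Adam17*-/- replicate 1.

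Of 45 genes that act downstream of these receptors, 44 were tested, and 3 were higher (6.82%, against 14.9% over all genes) and 15 lower (34.1%, against 16.8% over all genes), and their median change on the log2 scale was -0.15. The 3 higher genes were *Rgs2* (0.68, adjusted p = 0.000684, edgeR), which encodes a regulator of G protein signaling, and *Grk4* (0.66) and *Grk3* (0.60), which encode receptor kinases. Other members of these families went the other way or did not pass, with *Rgs3* (-0.44) and *Rgs14* (-0.45) among the lower genes and *Grk2*, *Grk5*, and *Grk6* not passing. Among the lower genes, *Tiam1* (-0.51) and *Dock2* (-0.50) encode activators of the GTPase Rac, which drives the protrusions of migrating cells. None of the 44 reached a change of 1 on the log2 scale. By the second rule, 3.36% of all genes were higher and 0.867% lower. The count of lower genes depended on the libraries and the scaling, with 6 genes without *Adam17*-/- replicate 1 or 2, 9 without replicate 3, and 5 or 6 with scaling by library size or in FPKM, and the count of higher genes was 6 without WT replicate 2. Over all genes, the lower calls also went from 2114 to 926, 1168, and 1237 without *Adam17*-/- replicates 1, 2, and 3, and to 1077 with library size only, and the higher calls from 1869 to 2460 without WT replicate 2.

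Around the receptor genes of chromosome 9, within 500 kb of *Ccr1*, *Ccr2*, *Ccr3*, or *Ccrl2*, 62 other genes are annotated, and 24 of them were tested. Of these, 4 were higher (16.7%, against 14.9% over all genes) and 1 was lower (4.17%, against 16.8%). *Ltf*, the gene of the neutrophil granule protein lactoferrin, rose most (log2 fold change 2.18, adjusted p = 0.000145, edgeR), from 20.8 and 18.2 CPM to between 75.3 and 107 CPM. *2010315B03Rik* (0.74), *Lztfl1* (0.60), and *Epm2aip1* (0.49) were also higher. *Gm10052* was lower (-2.45), but WT replicate 1 held 59.8 CPM of it against 16.2 CPM in WT replicate 2, and its counts were not whole. Without WT replicate 1, 7 of these genes were higher, and without WT replicate 2, 4 were lower. The same fits gave 1868 higher calls (against 1869) and 2940 lower calls (against 2114) over all genes.

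Marker genes of myeloid cells moved in the same comparison. Of 11 neutrophil markers, 9 were higher (81.8%, against 14.9% over all genes), and their median change on the log2 scale was 1.73. Their summed level was 1725 and 1678 CPM with WT cells and 2652 to 2997 CPM with *Adam17*-/- cells, as *Cxcr2* was higher in the same libraries. The calprotectin genes *S100a8* (1.78) and *S100a9* (1.73) and the granule genes *Ngp* (1.97), *Camp* (2.04), and *Ltf* were among them, with *Ly6g* (1.83). *Mmp8*, the gene with the most counts on the list, did not pass (0.14, adjusted p = 0.318, edgeR). *Mpo* did not pass either (1.64, adjusted p = 0.0581). No marker of the list was at 0 in all libraries. Of the 6 monocyte markers, 4 were higher (66.7%, against 14.9% over all genes), among them *Chil3* (2.46), *Ly6c2* (1.81), and *Plac8* (1.04), and *F13a1* was lower (-0.41). Their summed level, 1920 and 2271 CPM against 1372 to 1811 CPM, was set mainly by *F13a1* and was lower with *Adam17*-/- cells, while *Ccr2* was higher. The part of these cells in the levels of *Cxcr2* and *Ccr2* was not tested.

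Of the 7 macrophage markers, 5 were lower (71.4%, against 16.8% over all genes), and their median change on the log2 scale was -0.64, close to that of *Cmklr1*. These were *Cd68* (-0.93), *Adgre1* (-0.66), *Lyz2* (-0.65), *Itgam* (-0.64), and *Fcgr1* (-0.55). *Csf1r* (-0.29, adjusted p = 0.0520) and *Mertk* (-0.06, adjusted p = 0.572) did not pass by edgeR. Their summed level was 27760 and 27110 CPM with WT cells and 17580 to 19460 CPM with *Adam17*-/- cells. Whether *Cmklr1* changed beyond these markers was not tested.

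Markers of eosinophils, the cells best known for CCR3, summed to 6.28 and 4.44 CPM with WT cells and to 13.5 to 18.0 CPM with *Adam17*-/- cells, and *Siglecf* was the 1 of 3 tested that was higher (33.3%, against 14.9% over all genes), with a log2 fold change of 1.65 (adjusted p = 0.000550, edgeR). Basophil and mast cell markers summed to between 1.25 and 5.33 CPM, with 0 of 1 tested passing. Dendritic cell markers summed to 11.4 and 16.7 CPM with WT cells and 21.0 to 28.8 CPM with *Adam17*-/- cells, with *Ccr7* and *Clec9a* (1.38) higher among 6 tested (33.3%, against 14.9% over all genes). None of the lymphoid markers was tested, and of the epithelial markers *Cdh1* was the 1 tested and did not pass (0.14, adjusted p = 0.422, edgeR).

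**Figure D5:**
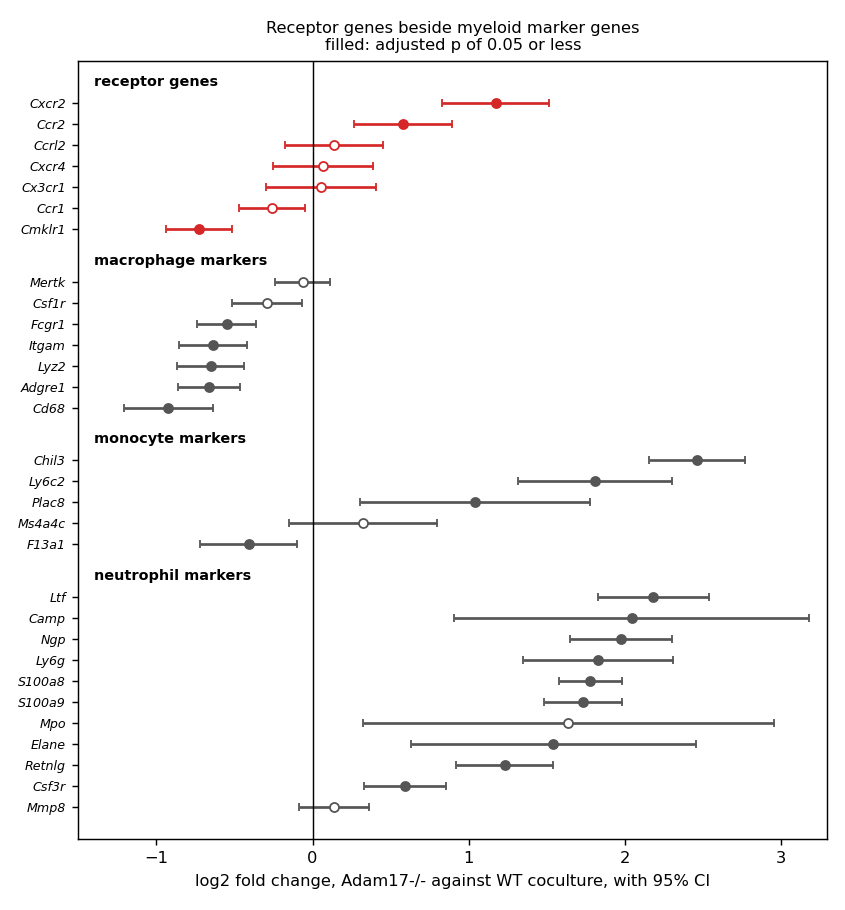
Log2 fold changes (*Adam17*-/- against WT coculture) with 95% confidence intervals from edgeR for the receptor genes and for macrophage, monocyte, and neutrophil markers (1 monocyte marker is not drawn), with filled points for an adjusted p of 0.05 or less. Most neutrophil markers lie to the right of *Cxcr2*, which is at 1.17, and the macrophage markers lie left of 0, from -0.93 for *Cd68* to -0.06 for *Mertk*.

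Genes with the profile most like each receptor were sought among 8487 genes with a mean of at least 10 CPM, as the root mean square difference of centered log2 CPM over the 5 libraries. For *Cxcr2* these were *Pdgfrb* (0.0413) and *Rsc1a1* (0.0576), for *Ccr2* *Nampt* (0.0229) and *Abcd2* (0.0445), and for *Cmklr1* *Mfhas1* (0.0205) and *Metrnl* (0.0297). The nearest to *Ccr1* were *Ddx10* and *Mrps21*, to *Ccrl2* *Tfam* and *D17H6S56E-5*, to *Cx3cr1* *Tns4* and *Unc13a*, and to *Cxcr4* *Nfkbil1* and *Tonsl*. With only 5 libraries, this likeness is given as a description.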

How the data were processed

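RNA-Seq libraries of 5 BMDM samples were grouped by the sample labels. The authors aligned reads with Bowtie2 and estimated transcript levels with RSEM, per the labels' processing notes, on mm10 (GRCm38), and the paper's methods also name HISAT. No version is given in the sources used here. For each transcript the authors deposited an expected count without any normalization, and FPKM, which scales by length and library size. Gene sums of the expected counts were rounded to whole numbers. Between 16.0% and 16.8% of the gene sums per library were not whole (tolerance 0.005 of a count), so that genes with shared sequence have uncertain counts. How strand was used in counting is not given.

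The main test was edgeR 4.0.16 (R 4.3.3), run with filterByExpr, TMM factors, and the functions glmQLFit and glmQLFTest, without covariates. For log2 CPM profiles, a prior count of 2 was used. Alternatives were scaling by upper quartile or by library size alone, DESeq2 1.42.0, limma 3.58.1 on log2(FPKM + 0.1) and log2(FPKM + 1), 2 other filters on low counts, the replicate number as a block, and each library left out in turn. The scripts were tested on simulated data. Replicate libraries differed by more than sampling noise (chi-square per degree of freedom of 25.7 between the WT libraries and 5.22 to 6.32 between the *Adam17*-/- libraries). Symbols and promoter windows came from RefSeq, and exons from GENCODE. Windows of *Ccr2*, *Ccrl2*, and *Cx3cr1* that overlap annotated exons are not shown.

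The receptor genes, the lists, and the rule for named genes were chosen with earlier results of these data known. The rule took all receptors and tested ligands, up to 6 passing genes of each other list with the largest absolute log2 fold change, close paralogs and partners, and the 2 nearest profiles of each receptor. Among genes that stand on more than 1 list are *Ltf*, *Ccr7*, *Ccr9*, *Cxcr6*, and *Xcr1*. Some genes of the lists are counted but not reported here by name. Values for markers beyond this rule were named after they were seen. Protein sequences were not used here. Figures were drawn with Python 3.11.15 and matplotlib 3.10.9.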

Additional observations from a re-analysis of the deposited data

How the results depend on the processing

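Across 13 alternatives, the log2 fold change of *Cxcr2* ranged from 0.90 to 1.50 and that of *Cmklr1* from -0.81 to -0.57, and both passed in all 13. *Ccr2* ranged from 0.38 to 0.81 and passed in 11, with adjusted p-values from 0.000201 to 0.0573. *Ccr1* ranged from -0.35 to -0.11 and passed in 3 (DESeq2, no filter on low counts, and without WT replicate 1). *Ccrl2* ranged from 0.05 to 0.28 and passed in 0. *Cx3cr1* turned to -0.16 with the replicate block (adjusted p = 0.489) and to -0.14 without *Adam17*-/- replicate 3, and its highest value was 0.20. Replicate 3 exists only with *Adam17*-/- cells, so the block fit takes no difference from that library and is close to the fit without it. *Cxcr4* turned to -0.13 without WT replicate 2 and to -0.02 without *Adam17*-/- replicate 2. With 1 library left out, *Cx3cr1* ranged from -0.14 to 0.18 and *Cxcr4* from -0.13 to 0.29. Where a WT library is left out, the remaining one is assumed to vary like the *Adam17*-/- libraries, although the WT libraries were farther apart than these, so those p-values may be too small.

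The number of receptor genes higher was 1 with the fold threshold and 1 to 2 with 1 library left out. The number lower was 2 with DESeq2 and with no filter, 0 with the fold threshold, and 1 to 2 with 1 library left out. Other chemoattractant receptors numbered 2 higher with upper quartile factors, with no filter, and with at least 10 counts in every library, 4 with library size only and with log2(FPKM + 1), 5 with log2(FPKM + 0.1), and 1 to 3 with 1 library left out. Their lower genes numbered 3 with library size only and with either FPKM fit, and 3 to 6 with 1 library left out. Downstream genes numbered 5 higher with library size only and 3 to 6 with 1 library left out, and lower 6 with library size only and with the replicate block, 5 in both FPKM fits, and 6 to 20 with 1 library left out. Genes around the chromosome 9 receptors numbered 8 higher with library size only and with either FPKM fit, 7 with no filter, and 3 to 7 with 1 library left out, and lower 1 to 4. The ligand counts were 7 lower and 0 higher with the fold threshold and kept within 1.5 times of 11 and 1 under the other alternatives, with 10 to 13 lower and 1 higher with 1 library left out. The shares of *Ccrl2* transcripts moved by less than the spread between libraries when taken from FPKM. The cause of these changes was not tested.

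The scaling moved the median over all genes (log2 fold change) from 0.01 to 0.16 with library size only, to 0.15 with log2(FPKM + 0.1), and to 0.11 with log2(FPKM + 1). Of all calls, 46.9% were higher in the main comparison (1869 higher and 2114 lower) and 73.7% with library size only (3019 and 1077). Relative to the shifted median with library size only, the log2 fold changes were 1.17 for *Cxcr2*, 0.57 for *Ccr2*, -0.74 for *Cmklr1*, and -0.27 for *Ccr1*. Over genes, deviations of WT and *Adam17*-/- libraries correlated at -0.12 for replicate number 1 and -0.05 for number 2. The 2 WT deviations were mirror images, so pairing was not decided. The replicate block takes its group difference from numbers 1 and 2 only. With it, 2 receptor genes were higher and 1 lower, as in the main comparison. Over all genes, 1216 were higher and 1126 lower. Depth limits *Ccr3*, *Rarres2*, *Ccl8*, *Ccl11*, and *Gpr1*, whose counts were too low for the main filter. *Ccr3* entered 4 alternatives and passed in 0, with log2 fold changes of 0.07 (DESeq2), 0.04 (no filter), 0.35 (without WT replicate 1), and -0.25 (without WT replicate 2) and adjusted p-values from 0.806 to 0.972.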
